A study of Homo sapiens with 45 samples.

Results

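The genes described here are PSMB8, PSMB9 and PSMB10, which encode the catalytic subunits of the immunoproteasome; TAP1, TAP2 and TAPBP, which encode the peptide transporter and its loading partner tapasin; and B2M, HLA-B and HLA-C, which encode chains of the class I molecule. They are 9 of the 60676 genes of the count table and were found by their gene symbol. PSMB8 heads them because it was selected on its counts, 0 in AAVS1 cells and many in RNF25 KO and RNF25 GCN2 DKO cells, so its difference between those lines is a description and carries no test. Since its counts of 0 in AAVS1 were part of that choice, PSMB8 was left out of every test that involves AAVS1 libraries, which then covers 6 of these genes. The other 8 genes were taken as the rest of the pathway with earlier results of these libraries known, and their differences in those same lines are likewise given as values with an error and without a p-value. A filter on low counts left 11078 genes for testing, among them 7 of the 9. PSMB9 and PSMB10 did not pass it, and PSMB8 passed through the groups in which it was high.

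The immunoproteasome is a variant of the proteasome in which 3 catalytic subunits of the constitutive core are replaced by PSMB8, PSMB9 and PSMB10. Its peptides, like those of the constitutive form, are carried by the TAP1 and TAP2 transporter into the endoplasmic reticulum, where tapasin holds the transporter beside class I molecules waiting for a peptide. A class I molecule is a heavy chain, such as HLA-B or HLA-C, paired with beta-2-microglobulin (B2M), and it shows peptides to T cells at the surface. Interferon gamma, acting in part through IRF1, and the regulator NLRC5 are known inducers of these genes in many cell types.

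Messenger RNA was sequenced in 45 libraries of HAP1, a near-haploid line derived from the leukaemia line KBM-7. The 6 genotypes were the knockouts (KO) of RNF25, GCN2 and ZNF598, the double knockout RNF25 GCN2 DKO, the ribosomal protein change eS31 K113R, and AAVS1, which is named for a site often edited as a neutral control and is the line the others are set against. Each genotype was given 5 uM azaC for 4 h or left untreated, and RNF25 KO, GCN2 KO and AAVS1 cells were also given 25 nM halofuginone (HF) for 4 h, which made 15 groups of 3 libraries. All groups share the HAP1 background, and the labels name no vehicle, no clone number and no edit within a gene. In every comparison of lines, the edit and a difference between clones therefore cannot be told apart. Untreated eS31 K113R replicates 2 and 3 have a title and a genotype label that read eS32 K223R; they were placed by the column name given for them. The libraries are labelled as biological replicates with nothing on separate cultures, so the p-values measure the spread between these libraries.

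Library totals ran from 1135498 to 2478875 counts. Levels are in CPM, the counts divided by the scaled library size. In bulk RNA, fewer cells that express a gene and less RNA per cell cannot be told apart. AAVS1 untreated replicate 2 and RNF25 KO azaC replicate 2 stood apart in how counts depended on GC content, with slopes of -0.46 and 0.35 log2 units per 10% GC against -0.19 to 0.12 in the other 43 libraries. EIF2AK4, the gene of GCN2, was at 14.1 to 28.4 CPM in the 9 GCN2 KO libraries and at 22.4 to 47.8 CPM in the 6 RNF25 GCN2 DKO libraries, against 37.0 to 57.0 CPM in the 9 AAVS1 libraries. ZNF598 was at 30.5 to 47.5 CPM in the 6 ZNF598 KO libraries, against 55.9 to 93.5 CPM in AAVS1. RNF25 itself had 0 to 4 counts per library in RNF25 KO cells and 0 to 7 in AAVS1 cells, so its mRNA could not check that label at this depth. RPS27A, which encodes eS31, was at 4812 to 10641 CPM in eS31 K113R and at 5441 to 9978 CPM in AAVS1, and a point change need not alter it. Markers of blood cells (14, with 6 at 0 counts in every library, among them CD33, MPO and GATA1), epithelium (6) and endothelium (3) held no gene that passed the filter, with summed group levels of at most 1.23, 2.20 and 1.66 CPM, while VIM, COL1A1 and FN1 passed among 6 mesenchymal markers.

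PSMB8, the immunoproteasome's counterpart of PSMB5, separated the lines into 3 levels. In untreated RNF25 KO cells the libraries had 33.8, 16.8 and 61.7 CPM (42, 27 and 99 counts), and in untreated RNF25 GCN2 DKO cells 34.2, 25.1 and 67.9 CPM, against 0 counts in all 3 untreated AAVS1 libraries. Under azaC the RNF25 KO libraries had 46.7, 36.5 and 68.6 CPM and the RNF25 GCN2 DKO libraries 48.0, 28.1 and 61.6 CPM, against 0 counts in all 3 azaC-treated AAVS1 libraries. Every library of both lines thus held PSMB8 counts and every one of these AAVS1 libraries held none. A group total of 0 allows a level of up to 0.635 CPM in untreated and 0.622 CPM in azaC-treated AAVS1 (3 counts over the 3 libraries; counting error only). Over that floor, the pooled PSMB8 level was 59.4-fold higher in untreated RNF25 KO and 64.2-fold higher in untreated RNF25 GCN2 DKO. It was 77.8-fold and 73.8-fold higher in the azaC-treated lines. The ratios leave out the error of the upper level, so they are not lower bounds. By counting error alone, the pooled level in untreated RNF25 KO was 32.2 to 43.9 CPM (95% range). These values used the libraries that chose the gene. In halofuginone, RNF25 KO cells had 29.4, 24.6 and 63.0 CPM, against 3.10, 1.27 and 0 CPM (4, 2 and 0 counts) in AAVS1 cells.

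GCN2 KO cells had PSMB8 at an intermediate level. The counts were 11, 7 and 15 in untreated GCN2 KO libraries (7.99, 6.37 and 11.7 CPM), against 0 in each AAVS1 library, and 12, 7 and 11 in azaC-treated GCN2 KO libraries (8.32, 3.89 and 6.96 CPM), again against 0. In halofuginone the GCN2 KO counts were 7, 7 and 20. All 9 GCN2 KO libraries held PSMB8, their highest at 11.7 CPM, below the lowest of the 15 RNF25 KO and RNF25 GCN2 DKO libraries at 16.8 CPM. PSMB8 was at least 13.8-fold higher in untreated and at least 10.0-fold higher in azaC-treated GCN2 KO cells than the AAVS1 floor. The AAVS1 libraries were those that chose the gene, so this difference too is given without a test.

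In the other lines PSMB8 was near the counting floor. The eS31 K113R libraries had 0 counts untreated and 2, 1 and 2 in azaC. ZNF598 KO had 0, 1 and 7 counts untreated and 0 in azaC, where the 7 counts came from 1 library at 3.71 CPM. Over all treatments, mean PSMB8 was 42.4 CPM in RNF25 KO, 44.2 CPM in RNF25 GCN2 DKO, 7.16 CPM in GCN2 KO, 0.587 CPM in eS31 K113R, 0.714 CPM in ZNF598 KO and 0.486 CPM in AAVS1. In the order of the 15 group means, the 5 RNF25 KO and RNF25 GCN2 DKO groups came first and overlapped their neighbours, the 3 GCN2 KO groups followed without overlapping them, and the other 7 groups lay below. In each of the 5 upper groups the library numbered 3 was the highest and the one numbered 2 the lowest. HLA-B and HLA-C were likewise lowest in number 2 in all 5. The pattern was not limited to these groups. Over all 15, number 2 was lowest in 13 for HLA-B, 14 for HLA-C, 10 for B2M, 9 for TAP1 and TAPBP, and 5 for TAP2. Fits with the replicate number as a block are given below where they changed a call. The cause of the pattern was not tested. PSMB8 (chr6:32840717-32844703, GRCh38, minus strand) shares 20.6% of its exon length with PSMB9 and the antisense gene PSMB8-AS1 on the other strand, which had 141 and 13 counts in the 45 libraries against 1135 for PSMB8. The strand setting of the counting is not given in the sources used here.

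**Figure D1:**
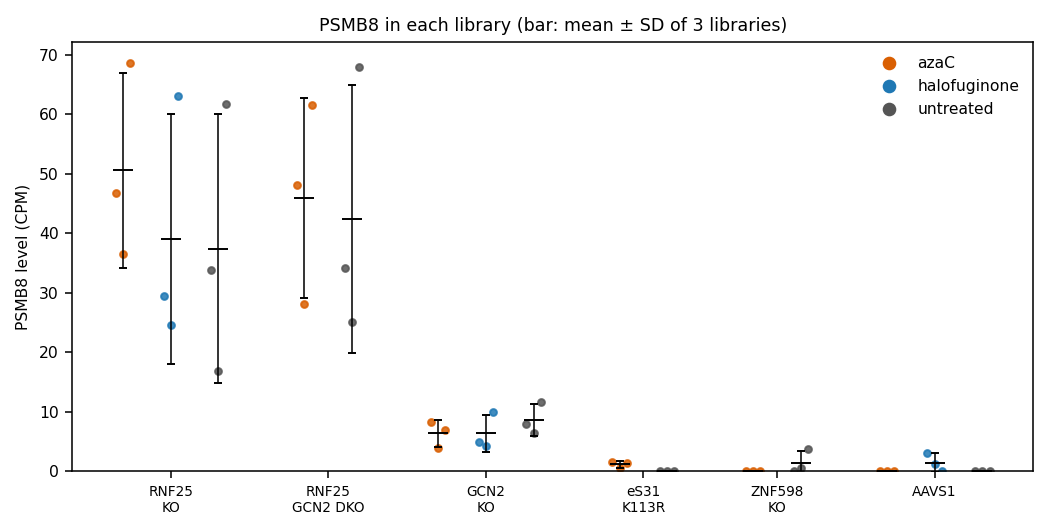
PSMB8 level (CPM, linear axis from 0) in each library of the 15 groups, coloured by treatment, with the mean and SD of 3 libraries. RNF25 KO and RNF25 GCN2 DKO libraries lie at 16.8 CPM or higher, GCN2 KO libraries at 3.89 to 11.7 CPM, and libraries of the other 3 lines at 3.71 CPM or lower.

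The other inducible subunits were hardly expressed. PSMB9, the counterpart of PSMB6, had 141 counts in all, 0 to 15 per library. Its mean over all treatments was 2.95 CPM in RNF25 KO, 3.27 CPM in RNF25 GCN2 DKO, 1.98 CPM in GCN2 KO, 1.62 CPM in eS31 K113R, 0.683 CPM in ZNF598 KO and 1.21 CPM in AAVS1. The ranges of all 6 lines overlapped (0 to 6.23 CPM in RNF25 KO, 0 to 2.73 CPM in AAVS1). Summed over libraries there were 46 counts in 9 RNF25 KO and 33 in 6 RNF25 GCN2 DKO libraries, against 16 in 9 AAVS1 libraries, and no test was made because the gene did not pass the filter. PSMB9 (chr6:32844136-32859585, plus strand) shares 5.66% of its exon length with PSMB8-AS1 on its own strand. PSMB10, the counterpart of PSMB7, had 5 counts, all in eS31 K113R azaC replicate 3. Its exons (chr16:67934502-67937087, minus strand) lie for 34.8% of their length under same-strand exons of AC040162.1, which had 0 counts, and reads of shared exons may have gone uncounted.

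The constitutive counterparts were abundant and did not pass the test. PSMB5, PSMB6 and PSMB7 averaged 109, 203 and 160 CPM per kb of exon over the 45 libraries, whereas PSMB8, PSMB9 and PSMB10 averaged 5.36, 0.642 and 0.0396 CPM per kb. PSMB8 reached 12.5 CPM per kb in untreated RNF25 KO and 14.1 CPM per kb in untreated RNF25 GCN2 DKO cells. None of PSMB5, PSMB6 and PSMB7 passed the test in any of the 20 comparisons. In untreated RNF25 KO against untreated AAVS1, PSMB5 was at 193 ± 41.2 CPM in RNF25 KO and 215 ± 15.9 CPM in AAVS1 (SD, n = 3 each; log2 change -0.15 ± 0.17 SE, edgeR adjusted p = 0.868). Of 16 other core subunits and assembly factors, such as PSMA1 and POMP, 15 were tested and 0 passed in any of the 20 comparisons.

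**Figure D2:**
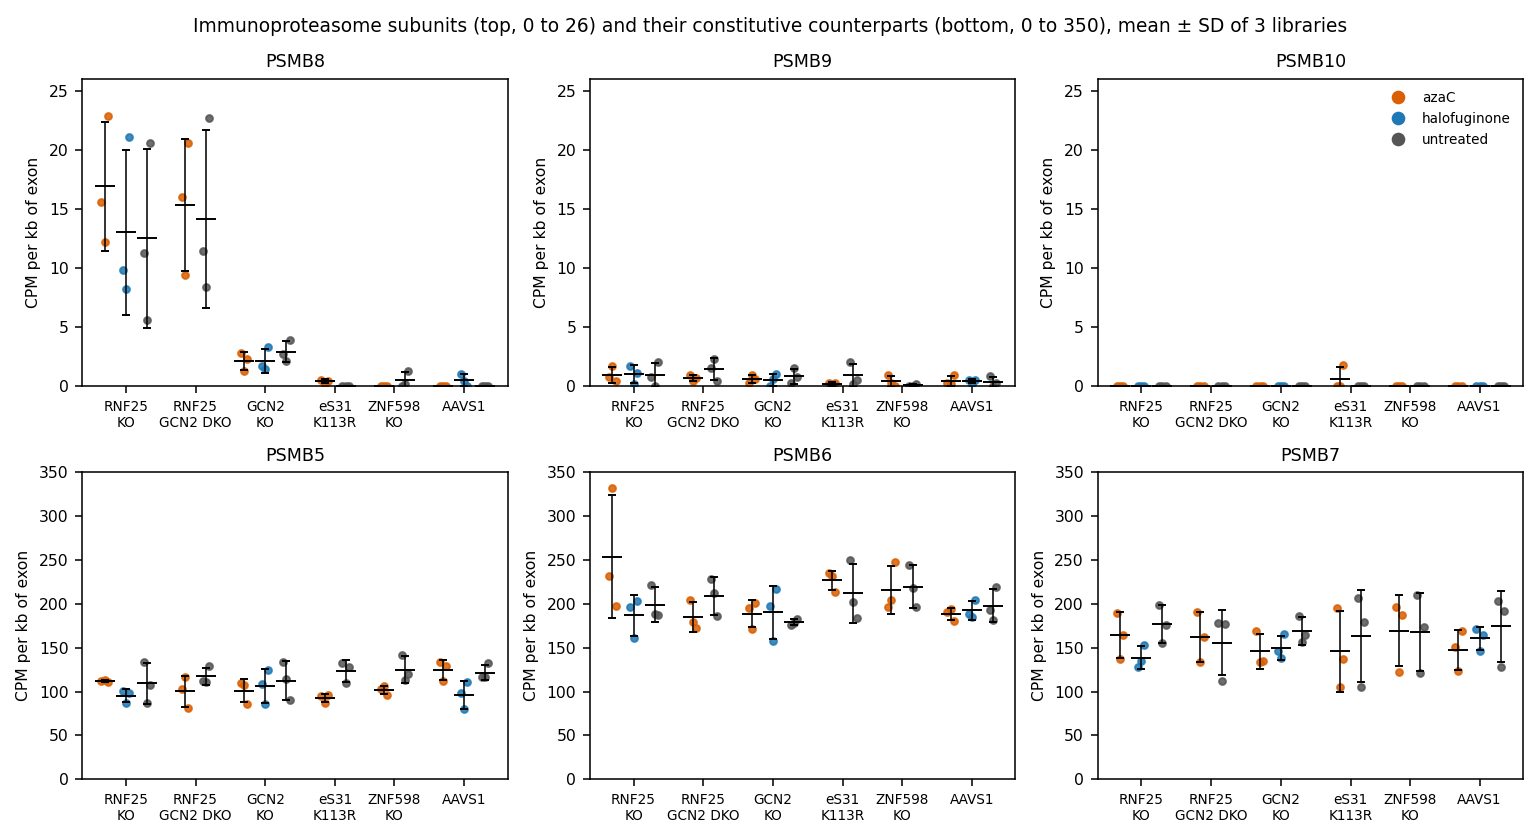
CPM per kb of exon (linear axes from 0) in each library for the immunoproteasome subunits in the top row and the constitutive subunits they replace in the bottom row, with the mean and SD of 3 libraries; the top axes end at 26 and the bottom axes at 350. PSMB8 is the only one of the 6 panels in which the RNF25 KO and RNF25 GCN2 DKO libraries lie apart from AAVS1.

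TAP1, TAP2 and TAPBP serve the next step, transport and loading. TAP1, 1 chain of the transporter, which binds peptide and ATP (chr6:32845209-32853978, minus strand), had 31.1, 44.5 and 41.3 CPM in azaC-treated RNF25 KO libraries, against 16.0, 13.1 and 10.9 CPM in azaC-treated AAVS1 libraries. Those groups did not overlap, with a log2 change of 1.55 ± 0.36 (SE). Untreated, TAP1 had 27.4, 21.8 and 40.5 CPM in RNF25 KO and 23.2, 33.2 and 24.8 CPM in RNF25 GCN2 DKO, against 19.8, 16.0 and 24.4 CPM in AAVS1. Here the groups overlapped, and the log2 changes were 0.58 ± 0.35 and 0.45 ± 0.35. In azaC, RNF25 GCN2 DKO cells had 31.0, 12.7 and 42.7 CPM, with replicate 2 inside the AAVS1 range. In eS31 K113R TAP1 lay below AAVS1 in every library, at 8.41, 10.4 and 13.8 CPM untreated and 7.31, 6.36 and 7.27 CPM in azaC, but did not pass the test (log2 -0.88 ± 0.39 and -0.93 ± 0.42, edgeR adjusted p = 0.325 and 0.310).

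TAPBP (chr6:33299694-33314387, minus strand) had 29.8, 28.6 and 40.5 CPM in untreated RNF25 KO and 29.4, 25.6 and 39.4 CPM in untreated RNF25 GCN2 DKO, against 18.9, 2.99 and 20.6 CPM in untreated AAVS1. All libraries of both lines lay above those of AAVS1, with log2 changes of 1.28 ± 0.41 and 1.21 ± 0.41. The AAVS1 library at 2.99 CPM was replicate 2, 1 of the 2 that stood apart in GC dependence. Without it, the RNF25 GCN2 DKO change was 0.66, and without both such libraries the RNF25 KO change was 0.74. In azaC, TAPBP had 41.5, 87.9 and 25.4 CPM in RNF25 KO, against 19.6, 13.1 and 23.9 CPM in AAVS1. The 87.9 CPM came from the other library that stood apart, and the log2 change of 1.49 ± 0.38 was 0.83 without both. In halofuginone the groups overlapped, at 33.0, 13.9 and 29.9 CPM in RNF25 KO and 17.8, 15.8 and 25.7 CPM in AAVS1. TAPBP was at 28.1, 32.4 and 30.8 CPM in azaC-treated RNF25 GCN2 DKO cells, above AAVS1 by 0.70 ± 0.40 on the log2 scale. Azac-treated ZNF598 KO, at 26.6, 26.9 and 33.0 CPM, also lay wholly above AAVS1 (0.63 ± 0.40). The azaC changes in eS31 K113R and GCN2 KO were 0.40 ± 0.40 and 0.38 ± 0.40. Untreated, the changes were 0.86 ± 0.41 in ZNF598 KO, 0.75 ± 0.42 in eS31 K113R and 0.22 ± 0.44 in GCN2 KO. None of these passed the test.

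TAP2, the other chain of the transporter (chr6:32821833-32838780, minus strand), was low in all lines, with 0 to 18 counts per library. It had 8.05, 0 and 1.25 CPM in untreated RNF25 KO and 5.46, 4.26 and 4.44 CPM in untreated RNF25 GCN2 DKO, against 0, 1.996 and 0.642 CPM in untreated AAVS1. The log2 changes were 1.42 ± 0.88 and 2.12 ± 0.82, and the first became -0.64 without the RNF25 KO library at 8.05 CPM. Without AAVS1 replicate 2 they were 2.73 and 3.43. Untreated AAVS1 was the lowest of the 15 groups for TAP2, with 5 counts in all. The 3 untreated ZNF598 KO, eS31 K113R and GCN2 KO groups also lay wholly above it (log2 2.17 ± 0.81, 1.90 ± 0.84 and 1.90 ± 0.85) without passing the test (edgeR adjusted p = 0.299, 0.330 and 0.437). In azaC the RNF25 KO and RNF25 GCN2 DKO changes were -0.03 ± 0.65 and -0.45 ± 0.68. Same-strand exons of AL669918.1, with 0 counts, cover 32.3% of the TAP2 exon length, so part of its reads may be missing.

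The class I chains were the most abundant of the 9 genes. Over all treatments, line means of HLA-B, HLA-C and B2M were highest in RNF25 KO and RNF25 GCN2 DKO and lowest in AAVS1, as for PSMB8. GCN2 KO lay between for these genes too. Unlike for PSMB8, eS31 K113R and ZNF598 KO lay near it or above it. Mean HLA-B was 283 CPM in RNF25 KO, 297 CPM in RNF25 GCN2 DKO, 189 CPM in eS31 K113R, 147 CPM in GCN2 KO, 146 CPM in ZNF598 KO and 95.6 CPM in AAVS1. HLA-B (chr6:31269491-31357188, minus strand) had 320, 195 and 338 CPM in untreated RNF25 KO and 339, 193 and 319 CPM in untreated RNF25 GCN2 DKO, against 103, 78.8 and 114 CPM in untreated AAVS1. Every library of both edited lines lay above every AAVS1 library. The log2 changes were 1.53 ± 0.24 and 1.52 ± 0.24. In azaC the libraries had 286, 250 and 311 CPM in RNF25 KO and 331, 277 and 320 CPM in RNF25 GCN2 DKO, against 82.9, 94.3 and 102 CPM in AAVS1, with changes of 1.60 ± 0.24 and 1.73 ± 0.25. In halofuginone, HLA-B was at 251, 229 and 369 CPM in RNF25 KO, against 97.8, 83.7 and 103 CPM in AAVS1. HLA-B was thus higher in every RNF25 KO and RNF25 GCN2 DKO library than in any AAVS1 library, under each treatment.

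HLA-C (chr6:31268749-31272130, minus strand) had 101, 70.9 and 113.4 CPM in untreated RNF25 KO and 122, 78.1 and 102 CPM in untreated RNF25 GCN2 DKO, against 32.7, 24.9 and 44.95 CPM in untreated AAVS1. The groups did not overlap, with log2 changes of 1.48 ± 0.29 and 1.56 ± 0.29. In azaC the changes were 1.35 ± 0.28 and 1.25 ± 0.28, from 131, 94.7 and 125 CPM in RNF25 KO and 129, 77.4 and 120 CPM in RNF25 GCN2 DKO, against 49.4, 36.8 and 51.2 CPM in AAVS1. In halofuginone the groups overlapped, at 105, 69.3 and 126 CPM in RNF25 KO and 46.6, 42.5 and 69.8 CPM in AAVS1. HLA heavy chain genes are near-identical in parts and differ between people, and reads were counted against reference alleles, so the split of reads between HLA-B, HLA-C and their relatives is uncertain. HLA-B and HLA-C also share 1.15% and 1.40% of their annotated exon length.

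B2M (chr15:44711487-44718877, plus strand) differed less between the lines. It had 592, 533 and 710 CPM in untreated RNF25 KO and 511, 432 and 641 CPM in untreated RNF25 GCN2 DKO, against 368, 450 and 359 CPM in untreated AAVS1. RNF25 KO lay wholly above AAVS1 (log2 0.64 ± 0.19), while the double knockout overlapped it (0.43 ± 0.19). In azaC, B2M had 550, 638 and 684 CPM in RNF25 KO and 553, 575 and 652 CPM in RNF25 GCN2 DKO, against 323, 335 and 383 CPM in AAVS1, with no overlap (0.85 ± 0.19 and 0.77 ± 0.19). On the per-length scale, mean levels over all libraries were 74.4 CPM per kb for B2M, 62.1 for HLA-B and 28.5 for HLA-C, against 5.09 for TAPBP, 4.18 for TAP1 and 0.672 for TAP2.

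**Figure D3:**
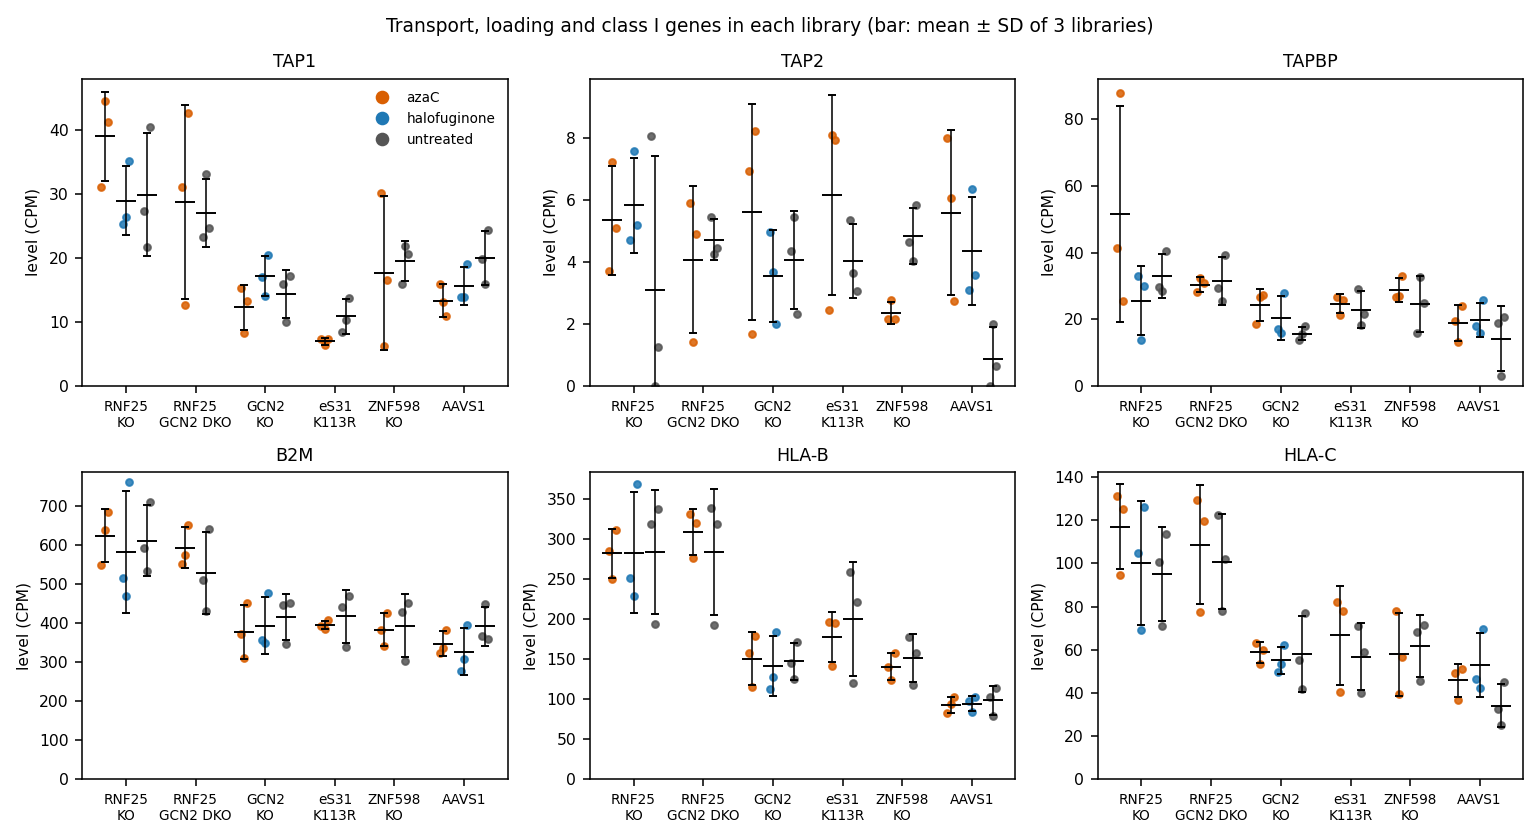
Level (CPM, linear axes from 0) of TAP1, TAP2, TAPBP, B2M, HLA-B and HLA-C in each library, coloured by treatment, with the mean and SD of 3 libraries. For HLA-B all RNF25 KO and RNF25 GCN2 DKO libraries (193 to 369 CPM) lie above all AAVS1 libraries (78.8 to 114 CPM), while for TAP2 all lines overlap.

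Without PSMB8, 4 of the 6 other tested genes lay wholly above AAVS1 in untreated RNF25 KO and 4 in untreated RNF25 GCN2 DKO. Of all tested genes, 6.14% and 6.34% did so. In azaC the counts were 5 and 4 of 6, where 8.12% and 7.70% of all tested genes did so. The median log2 change without PSMB8 was 1.35 and 1.37 untreated and 1.42 and 0.94 in azaC, beside a median over all tested genes within 0.01 of 0. These contrasts chose PSMB8, and the other genes were taken with earlier results known, so the counts and medians are descriptions. The adjusted test called 1.62% and 1.42% of all genes in these lines untreated and 2.26% and 1.55% in azaC, and no call is read from it for the members. The comparisons of the lines share the AAVS1 libraries.

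Outside those lines, 1 heavy chain rose. Counted without PSMB8, the members wholly above AAVS1 numbered 2 of 6 untreated and 2 of 6 in azaC in eS31 K113R, where 6.45% and 10.0% of all tested genes were, and 1 of 6, TAP1, lay wholly below each time, where 7.19% and 9.80% did. In untreated eS31 K113R, 1 of the 6 genes passed, where 2.87% of all tested genes did. It was HLA-B, at 259, 121 and 222 CPM in untreated eS31 K113R against 103, 78.8 and 114 CPM in untreated AAVS1, a log2 change of 1.02 ± 0.24 (edgeR adjusted p = 0.00853). With the replicate number as a block it passed as well, and HLA-C joined it (block adjusted p = 0.0169; log2 0.73 ± 0.30, adjusted p = 0.265 unblocked). The HLA-B call was lost without AAVS1 untreated replicate 2 (adjusted p = 0.0963), without eS31 K113R replicate 1 (0.130), the only one of the 3 whose title carries the same name as its column, and in a fit to the compared libraries alone (0.198). In azaC HLA-B again passed, 1 of 6 where 3.59% of all tested genes did, at 197, 142 and 196 CPM in eS31 K113R against 82.9, 94.3 and 102 CPM in AAVS1 (log2 0.93 ± 0.24, adjusted p = 0.0166). That call was lost without azaC-treated AAVS1 replicate 1 or 2 or eS31 K113R replicate 1 or 3 (adjusted p = 0.0618 to 0.104).

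In untreated ZNF598 KO, 0 of 6 genes passed, where 0.930% of all tested genes did (edgeR, and 0 of 6 with DESeq2 or limma-voom; 988 genes, the members HLA-B, HLA-C, TAP2 and TAPBP among them, had an unadjusted p under 0.05). In all, 3 of 6 lay wholly above AAVS1 untreated and 2 of 6 in azaC, where 5.71% and 7.03% of all tested genes did. HLA-B had 178, 118 and 158 CPM in ZNF598 KO (log2 0.62 ± 0.24) and HLA-C 68.5, 45.4 and 71.5 CPM (0.86 ± 0.29), both wholly above AAVS1. With the replicate block both passed (adjusted p = 0.0355 for HLA-B and 0.00677 for HLA-C), against 0.356 and 0.228 without it. In untreated GCN2 KO, 0 of 6 passed, where 1.05% of all tested genes did (edgeR, and 0 of 6 with DESeq2 or limma-voom; 1061 genes had an unadjusted p under 0.05). HLA-B had 145, 126 and 171 CPM (log2 0.58 ± 0.25, adjusted p = 0.387) and HLA-C 55.2, 41.9 and 77.0 CPM (0.78 ± 0.30, adjusted p = 0.300), and with the block HLA-C passed (adjusted p = 0.0234). In GCN2 KO 2 of 6 lay wholly above AAVS1 both untreated and in azaC, where 6.25% and 7.46% of all tested genes did. In azaC, 0 of 6 passed in ZNF598 KO, where 0.677% of all tested genes did (793 genes had an unadjusted p under 0.05), and 0 of 6 in GCN2 KO, where 1.25% did (989 genes), with 0 of 6 in both under DESeq2 and limma-voom. B2M differed from AAVS1 by at most 0.19 on the log2 scale in these 3 lines under either condition, with SEs of 0.19. Means of HLA-B were higher than AAVS1 in all 5 edited lines, and the change was not tested between lines other than the pair below.

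**Figure D4:**
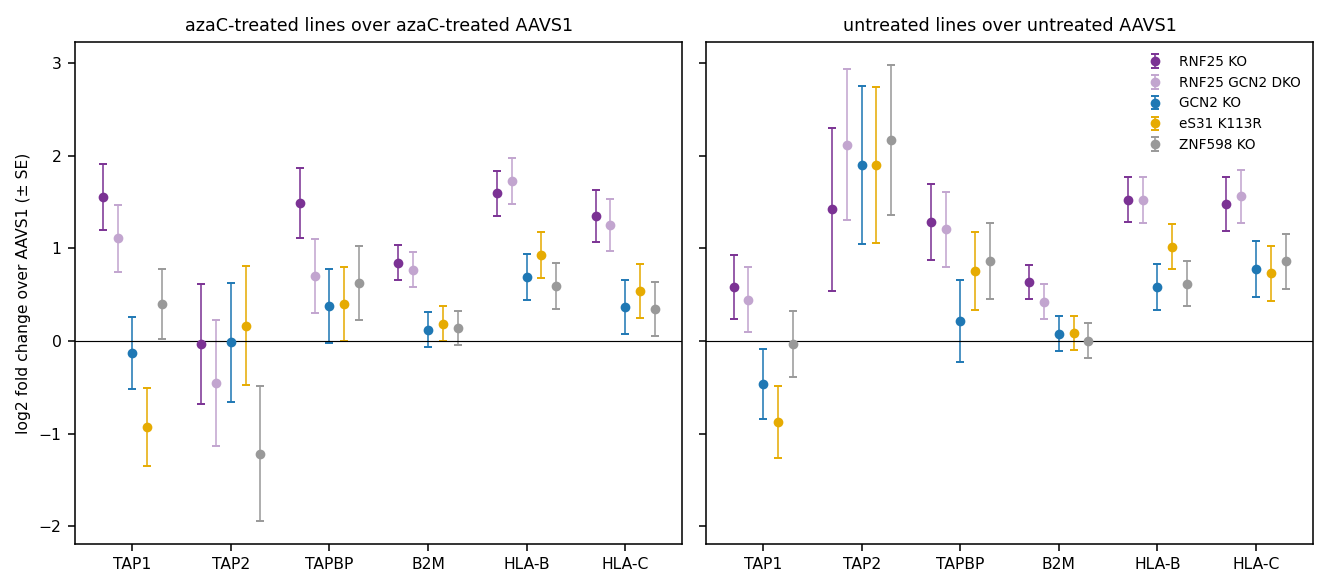
Log2 fold change over AAVS1 with its SE from the fit to 45 libraries for 6 genes in each edited line, azaC-treated on the left and untreated on the right. HLA-B in RNF25 KO and RNF25 GCN2 DKO lies at 1.52 to 1.73 on both sides and at 0.58 to 1.02 in the other 3 lines; TAP1 in eS31 K113R lies at -0.93 and -0.88.

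RNF25 GCN2 DKO cells did not differ detectably from RNF25 KO cells in these genes. Of the 7 tested genes 0 passed, and 0.00% of all tested genes did (edgeR; 325 had an unadjusted p under 0.05, and 1 gene passed with DESeq2 and 0 with limma-voom). PSMB8 was chosen for being high in both lines, so its likeness between them was partly set by that choice. It was at 42.4 ± 22.6 CPM in untreated RNF25 GCN2 DKO and 37.4 ± 22.7 CPM in untreated RNF25 KO (SD, n = 3 each, log2 0.17 ± 0.46). HLA-B was at 283.8 ± 79.0 CPM in RNF25 GCN2 DKO and 284.0 ± 77.95 CPM in RNF25 KO (log2 -0.00 ± 0.23), and B2M at 528 ± 105 CPM in RNF25 GCN2 DKO and 612 ± 89.8 CPM in RNF25 KO (log2 -0.21 ± 0.19). A p-value above the threshold does not show that the lines are alike.

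Neither drug changed these genes within 4 h in a way that passed the test. AzaC, the labels' short name, is not spelled out there, and halofuginone inhibits prolyl-tRNA synthetase. Over the 9 drug comparisons, 0 of 61 edgeR tests passed (7 genes, or 6 without PSMB8 in AAVS1) and 4 had an unadjusted p under 0.05. The smallest adjusted p was 0.298. In eS31 K113R and ZNF598 KO, PSMB8 was near the counting floor, so its tests there could hardly pass. Among the 4 was PSMB8 in ZNF598 KO, with 0 counts in azaC against 8 untreated, 7 of them in 1 library. In RNF25 KO and RNF25 GCN2 DKO the PSMB8 tests used untreated libraries that chose it. Of all tested genes, azaC changed 0.469% in RNF25 KO, 0.00% in RNF25 GCN2 DKO, 0.00% in GCN2 KO, 0.515% in eS31 K113R, 0.117% in ZNF598 KO and 0.117% in AAVS1, and halofuginone changed 1.73% in RNF25 KO, 1.24% in GCN2 KO and 1.54% in AAVS1. For azaC in RNF25 GCN2 DKO and GCN2 KO, 291 and 405 genes had an unadjusted p under 0.05, and 0 passed with DESeq2 or limma-voom. HLA-B moved by -0.17 to 0.13 and B2M by -0.26 to 0.17 on the log2 scale, the narrowest ranges of the 7. PSMB8 was at 50.6 ± 16.4 CPM in azaC-treated and 37.4 ± 22.7 CPM in untreated RNF25 KO cells (SD, n = 3 each; log2 0.43 ± 0.46, edgeR adjusted p = 0.833). In halofuginone-treated RNF25 KO cells it was at 39.0 ± 20.9 CPM (log2 0.05 ± 0.46).

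In AAVS1 cells HLA-C was at 46.6, 42.5 and 69.8 CPM in halofuginone, against 32.7, 24.9 and 44.95 CPM untreated (log2 0.65 ± 0.30, edgeR adjusted p = 0.386), and passed with the replicate block (adjusted p = 0.0480). TAP2 was at 3.10, 6.34 and 3.59 CPM in halofuginone-treated and 7.996, 6.05 and 2.73 CPM in azaC-treated AAVS1 cells, against 0, 1.996 and 0.642 CPM untreated (log2 2.02 ± 0.83 and 2.37 ± 0.81, adjusted p = 0.298 and 0.767). PSMB8 had 4, 2 and 0 counts in halofuginone-treated AAVS1 libraries and 0 in the untreated ones, with no test. The drug responses of the edited lines minus that of AAVS1 were tested in 7 interaction terms, 42 tests over the 6 genes other than PSMB8, and 0 passed (edgeR; 3 had an unadjusted p under 0.05, and the smallest adjusted p was 0.690).

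**Figure D5:**
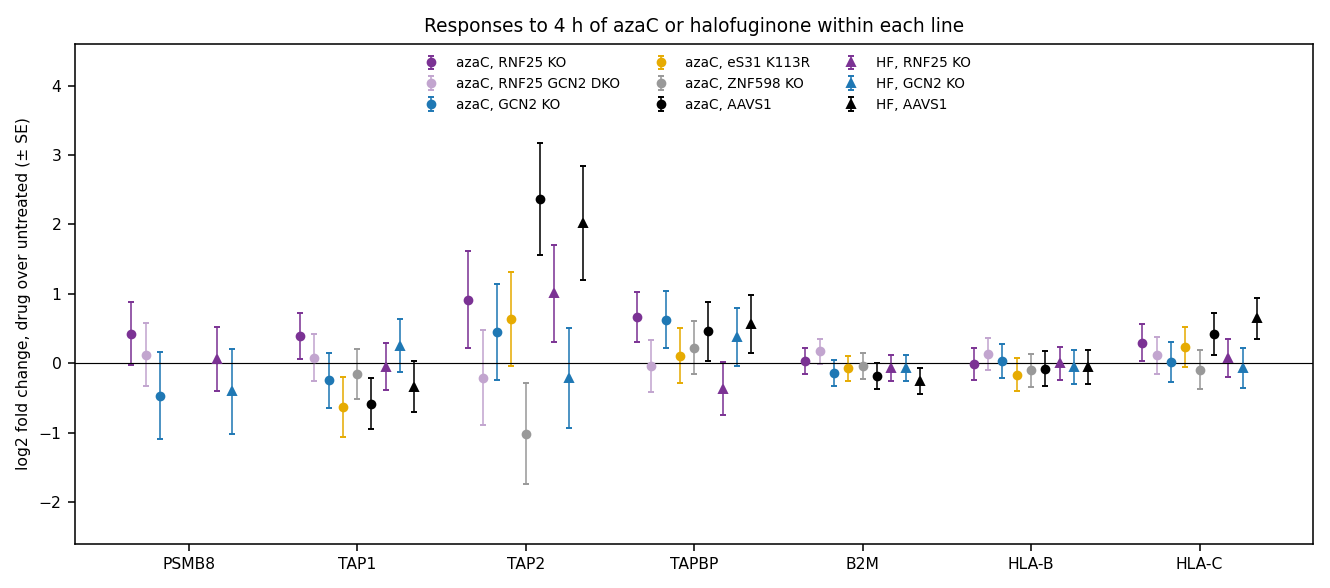
Log2 fold change of each drug over untreated cells of the same line, with its SE, for the 7 tested genes; circles are azaC and triangles halofuginone, and PSMB8 is drawn only where both groups had counts. HLA-B and B2M lie within 0.26 of 0 in every line, and TAP2 has the widest spread, with AAVS1 at 2.37 and 2.02.

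Genes of the same pathway that are not among the 9 were counted from lists. Of the other class I molecules and loading factors, ERAP1, a peptide-trimming enzyme, the chaperones CALR, CANX and PDIA3, and the class I heavy chain HLA-E were tested and did not pass in any of the 20 comparisons. PSME1, a subunit of the proteasome activator PA28, was the only call among 4 activators in the 20 comparisons. It passed narrowly in azaC-treated RNF25 KO against azaC-treated AAVS1, where 2.26% of all tested genes did. Its levels were 124 ± 25.0 and 78.7 ± 14.4 CPM (SD, n = 3 each, log2 0.65 ± 0.19, edgeR adjusted p = 0.0497). The RNF25 KO group includes the library that stood apart in GC dependence. PSME1 was at 124 ± 9.87 CPM in azaC-treated RNF25 GCN2 DKO (log2 0.64 ± 0.19, edgeR adjusted p = 0.0768).

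Of 20 transcription regulators of class I genes 17 were tested, and 0 passed in any comparison between lines. NLRC5, the class I transactivator, was low, at 6.44, 4.97 and 11.2 CPM in untreated RNF25 KO and 5.46, 5.21 and 4.44 CPM in untreated RNF25 GCN2 DKO, against 0, 2.49 and 2.57 CPM in untreated AAVS1 (log2 1.999 ± 0.83 and 1.42 ± 0.85, edgeR adjusted p = 0.358 and 0.660). In azaC NLRC5 had 4.45, 10.0 and 12.1 CPM in RNF25 KO against 0.727, 1.01 and 1.36 CPM in AAVS1, with no overlap (log2 3.02 ± 0.88, edgeR adjusted p = 0.0579). These AAVS1 libraries held 1, 2 and 2 counts, and the 10.0 CPM came from the RNF25 KO library that stood apart in GC dependence. Mean NLRC5 in azaC was 5.97 CPM in RNF25 GCN2 DKO, 4.11 CPM in eS31 K113R, 2.06 CPM in GCN2 KO and 1.20 CPM in ZNF598 KO. IRF1 was at 12.3 ± 4.91 CPM in untreated RNF25 KO against 4.45 ± 1.67 CPM in untreated AAVS1 (log2 1.39 ± 0.53, adjusted p = 0.265). Untreated AAVS1 was low in IRF1 against the other lines too: the change over it was 1.40 in RNF25 GCN2 DKO, 1.35 in ZNF598 KO, 1.05 in eS31 K113R and 1.00 in GCN2 KO, and azaC-treated AAVS1 stood 1.20 above it on the log2 scale (adjusted p = 0.268 to 0.990, none passing). In azaC IRF1 was 0.58 ± 0.46 higher in RNF25 KO than in AAVS1 (adjusted p = 0.688). Within lines, halofuginone raised EZH2, a histone methyltransferase, in AAVS1 (log2 0.76 ± 0.20, edgeR adjusted p = 0.0356), where 1.54% of all tested genes passed. In GCN2 KO, where 1.24% passed, it raised EED, a subunit of the same complex (0.85 ± 0.23, 0.0464). There it lowered RELA, a subunit of NF-kappa B (-0.96 ± 0.23, 0.0203). In RNF25 KO, where 1.73% passed, it raised RFXAP, a subunit of the RFX complex (1.86 ± 0.40, 0.00365).

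Interferon pathway genes gave 1 call. Of 10 receptors and kinases 9 were tested and 0 passed in any of the 20 comparisons. Of 35 interferon-stimulated genes 10 were tested, and 0 passed in RNF25 KO, with a median log2 change over AAVS1 of 0.82 untreated and 0.34 in azaC. The medians untreated and in azaC were 0.70 and 0.62 in eS31 K113R and 0.61 and 0.59 in RNF25 GCN2 DKO. In GCN2 KO they were 0.41 and 0.26, and in ZNF598 KO 0.13 and 0.02. In azaC-treated RNF25 GCN2 DKO 1 of the 10 passed, where 1.55% of all tested genes did. It was IFIH1, a sensor of double-stranded RNA, at 6.70 ± 2.83 CPM against 0.242 ± 0.420 CPM in azaC-treated AAVS1 (log2 4.54 ± 1.17, edgeR adjusted p = 0.0285). That AAVS1 level lay below the floor of 0.622 CPM (3 counts over the 3 libraries), so the size of the change is uncertain. Of 9 MHC class II genes 0 passed the filter.

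No tested neighbour of PSMB8, the TAP genes or PSMB10 passed in these lines. PSMB8, TAP1, PSMB9 and TAP2 lie together on chromosome 6, and HLA-DOB was the only other tested gene within 100 kb of any of them. It did not pass in untreated RNF25 KO (log2 0.42 ± 0.67, edgeR adjusted p = 0.929), RNF25 GCN2 DKO (0.74 ± 0.65, 0.824) or GCN2 KO (-0.95 ± 0.76, 0.809). Of the 7 tested genes within 100 kb of PSMB10, among them THAP11 and CENPT, 0 passed in any of the 20 comparisons.

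The genes most like PSMB8 over the 15 group means of log2 CPM were INHBB (Pearson r = 0.94), COTL1 (0.93), CYTOR (0.91), FAM111A (0.91) and TNNT1 (0.91). FAM111A was also the one most like HLA-B (0.95) and HLA-C (0.96), followed for both by UCHL1 and SLC30A9, which were the nearest to B2M (0.95 and 0.96). The nearest were FDX1 for TAP1 (0.93), FPGS for TAP2 (0.88) and YIF1B for TAPBP (0.93). Among the members, r was 0.94 between HLA-B and HLA-C, 0.93 between B2M and HLA-B, 0.89 between PSMB8 and HLA-C and 0.74 between PSMB8 and TAP1. TAP2 stood outside, with r from -0.14 to 0.40. The 15 points share lines, libraries and library scaling, so these values describe likeness across these groups only. PSMB8 was chosen on its levels in AAVS1, RNF25 KO and RNF25 GCN2 DKO, so the values of r with PSMB8 partly repeat that choice.

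The starts of the 9 genes were searched for motifs because several of the genes differed between lines together. Sequences are RefSeq promoters of build GRCh38.p14, matched by symbol for all 9 genes, and show reference alleles. HAP1's own alleles may differ, above all in the HLA genes. Motifs, read on both strands, were the interferon response core GAAANNGAAA (found in 3.02% of 35116 promoters of 250 bases), the gamma-activated site TTCNNNGAA (6.57%), the NF-kappa B motif GGGANNNNCC (22.6%) and the CCAAT box (32.0%). The interferon response core was found before the start of PSMB10, TAP1, TAP2, TAPBP and B2M, and across the second annotated start of PSMB8. With the 50 bases after each start included, it was in 3.57% of all promoters. The sites of the core are shown for the 6 of the 9 genes in which the longer window held it. Capitals mark the core, with matches that overlap run together. The other motifs were searched in the 250 bases only. There the NF-kappa B motif was found at TAP1, TAPBP, B2M, HLA-B and HLA-C, and the CCAAT box at PSMB9, TAP1, B2M, HLA-B and HLA-C.
PSMB8 second start (chr6:32844032-32844061, minus strand): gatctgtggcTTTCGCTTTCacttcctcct
PSMB10 (chr16:67936852-67936881, minus strand): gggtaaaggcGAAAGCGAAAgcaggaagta
TAP1 (chr6:32853819-32853848, minus strand): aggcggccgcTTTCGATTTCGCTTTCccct
TAP2 (chr6:32838778-32838807, minus strand): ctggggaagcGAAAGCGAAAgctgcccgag
TAPBP (chr6:33314079-33314108, minus strand): ccctttggagGAAAGTGAAAGTGAAAggag
B2M (chr15:44711363-44711392, plus strand): gagactctaaGAAAAGGAAACTGAAAacgg
The core was not found before the first start of PSMB8 or before PSMB9, HLA-B and HLA-C in these windows. Looser forms of the core and bases outside the windows were not searched, so this absence holds for these exact letters only.

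The promoters of B2M, HLA-B and HLA-C are shown whole because these genes had the highest levels. The windows hold the 250 bases before each start, 5' to 3' along the gene. Capitals mark every match to the 4 motifs. All 3 hold NF-kappa B and CCAAT matches, with 1 CCAAT box in B2M, 3 in HLA-B and 4 in HLA-C, and the interferon response core is capitalised only in B2M.
B2M (chr15:44711267-44711516, plus strand): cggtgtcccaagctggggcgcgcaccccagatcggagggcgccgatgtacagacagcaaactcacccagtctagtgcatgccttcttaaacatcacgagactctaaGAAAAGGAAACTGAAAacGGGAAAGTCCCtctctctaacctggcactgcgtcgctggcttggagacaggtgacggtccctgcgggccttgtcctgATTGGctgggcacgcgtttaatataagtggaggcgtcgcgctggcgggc
HLA-B (chr6:31357180-31357429, minus strand): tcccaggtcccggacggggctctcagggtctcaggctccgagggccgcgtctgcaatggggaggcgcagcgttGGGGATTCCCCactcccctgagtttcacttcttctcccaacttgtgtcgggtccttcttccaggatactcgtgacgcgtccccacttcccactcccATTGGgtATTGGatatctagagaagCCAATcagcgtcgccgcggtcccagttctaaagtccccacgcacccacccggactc
HLA-C (chr6:31272093-31272342, minus strand): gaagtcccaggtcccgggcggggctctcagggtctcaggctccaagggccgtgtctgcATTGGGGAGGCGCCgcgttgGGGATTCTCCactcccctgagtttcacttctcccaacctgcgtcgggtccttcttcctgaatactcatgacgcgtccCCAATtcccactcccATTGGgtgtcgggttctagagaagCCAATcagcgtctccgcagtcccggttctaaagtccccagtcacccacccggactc
CpG dinucleotides numbered 18, 17 and 15 in these 3 windows, 14 and 11 at the first and second start of PSMB8, 16 and 11 at those of TAP1, 21 at PSMB9, 19 at TAP2, 10 at TAPBP and 5 at PSMB10, against a median of 11 (quartiles 3 and 23) over all promoters. A match to a motif is a description of the letters and does not show binding.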

How the data were processed

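PolyA libraries (CORALL mRNA-Seq V2) were prepared from RNA purified on a Maxwell RSC, per the labels. The authors deposited raw counts per gene. The submitters' processing notes name STAR 2.7.10b, HTSeq 0.9.1 and GRCh38; for annotation release, strand setting and molecular identifiers, nothing was given in the sources used here. In the table, 2862 entries (0.0286% of counts) had no symbol, and 0 sample columns were left out.

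The counts went through edgeR 4.0.16 (R 4.3.3): filterByExpr (minimum count 10), TMM scaling, and a quasi-likelihood fit with 15 group means over 45 libraries (30 residual degrees of freedom, common biological variation 22.1%), first tested on simulated data. P-values were Benjamini-Hochberg adjusted over 11078 genes, with calls at adjusted p under 0.05; PSMB8, chosen on its counts of 0 in AAVS1, was left out of every test that involves AAVS1 libraries. Libraries within each group differed beyond counting noise (45 pairs, with a lowest chi-square of about 3 times its degrees of freedom). The members and lists were chosen with earlier results of these data known. Named genes were the 9 members, the edited genes, list genes that passed (up to 5 per list and comparison), the nearest by correlation and tested neighbours; NLRC5, IRF1, PSMB5 and PSMB8-AS1 were added after their values were seen. Some items of these lists are not reported here. Positions come from GENCODE 29 (GRCh38).

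Same-numbered libraries deviated together (every correlation over 0.1) in 11 of 20 comparisons, 0.113 to 0.281 between the untreated edited lines and AAVS1, and the fit with that block is given beside a result where it changed a call. Alternatives were DESeq2 1.42.0, limma-voom (limma 3.58.1), DESeq2-type size factors, no filter, only the compared libraries, the block, each library left out, both libraries that stand apart left out (added after seeing the data), and untreated eS31 K113R with replicate 1 only.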

Additional observations from a re-analysis of the deposited data

How the results depend on the processing

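For 14 of 20 counts or medians over the tested genes, PSMB8 left out of tests against AAVS1, no alternative mattered, the 4 medians in RNF25 KO and RNF25 GCN2 DKO against AAVS1 among them. Those 4 medians were taken here with PSMB8 included. With the replicate number as a block, 2 genes passed in each of untreated ZNF598 KO and eS31 K113R (0 and 1 without it), 1 in untreated GCN2 KO (0 without it), 1 in azaC-treated GCN2 KO (0 without it; the gene was HLA-B, adjusted p = 0.017, and the numbers did not pair these libraries), and 1 for halofuginone in AAVS1 (0 without it); it changed no other count. A fit to the compared libraries alone left 0 in untreated eS31 K113R. Leaving out both libraries that stand apart, an alternative chosen after seeing the data, left 0 in untreated eS31 K113R. Leaving out single libraries gave 0 to 1 in untreated eS31 K113R and 0 to 1 in azaC-treated eS31 K113R. The causes were not tested. Among single genes in RNF25 KO and RNF25 GCN2 DKO against AAVS1, which carry no test, TAP2 in untreated RNF25 KO turned to -0.64 on the log2 scale without RNF25 KO replicate 1 (1.42 with it), and in azaC its sign also depended on single libraries (-0.34 to 0.28). With 27 to 66 counts for the median tested gene, PSMB9, PSMB10 and TAP2 were too low to show modest changes.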
